A study of Mus musculus with 18 samples.

Results

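Gene expression was compared between RelA-TA-KI and wild-type macrophages at the late times after lipopolysaccharide (LPS), in 4 of the 18 libraries of the series. The members are the libraries collected at 3 h and at 8 h of LPS, 1 per genotype and time, so that the comparison rests on 2 pairs matched by time. All were made from poly(A) RNA of bone marrow-derived macrophages of strain C57BL/6, grown to day 7 in medium with 30% L929-conditioned medium and given LPS at 100 ng/ml. RelA-TA-KI is a knock-in of Rela; the label does not spell out the change, and the labels leave out whether the allele was on both chromosomes, how many animals gave marrow and what the age label of 12 days refers to. The series also holds unstimulated cells, cells at 0.5 and 1 h of LPS, and cells at 0.5, 1, 3 and 8 h of TNF at 10 ng/ml, again with 1 library per genotype and condition. No condition had a replicate. The p-values therefore measure how alike the genotype difference was between the pairs of a block of conditions (LPS 3 and 8 h, LPS 0.5 and 1 h, and the same for TNF), and the genotype cannot be told apart from the cultures that carried it.

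RelA is a subunit of NF-kB, a transcription factor that inhibitor proteins hold in the cytoplasm until a receptor such as TLR4, the receptor for LPS, releases it. In macrophages TLR4 signals through the adaptor MyD88 to NF-kB and MAP kinases, and through the adaptor TRIF to IRF3 and interferon-beta, which then acts back on the cells to induce antiviral genes. Early NF-kB targets are inhibitors, cytokines and chemokines, while late targets include acute phase proteins, enzymes and scavenger receptors whose induction needs newly made proteins.

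The 4 libraries held between 4739922 and 5967840 counts, within the range of 4663650 to 6721917 over all 18. Each had between 13774 and 14460 genes with at least 1 count. Levels below are counts per 1000000 (CPM) of library size scaled by TMM, a factor set so that most genes do not change; where 2 levels are joined by "against", wild-type comes first and knock-in second. The summed level of 8 macrophage markers was 11001 CPM in the wild-type library and 10854 CPM in the knock-in library at 3 h, and 14596 and 15986 CPM at 8 h, with none of the 8 at 0. Markers of neutrophils (9 genes) summed to 337 against 243 CPM at 3 h and 277 against 150.0 CPM at 8 h. Among them only Ltf was higher in the knock-in at 3 h, at 26.6 against 32.7 CPM. At 8 h Ltf was lower, at 22.6 against 14.5 CPM. Ly6g was at 0 in both knock-in libraries, but had only 1 and 2 reads in the wild-type libraries. Stromal markers (7 genes, 1 of them at 0 in each library) summed to 144 against 72.1 CPM at 3 h and 192 against 62.3 CPM at 8 h. Most of the stromal sum came from Col1a1 and Col1a2, at 60.5 against 31.8 and 78.8 against 36.8 CPM at 3 h. Dcn, Pdgfra and Pdgfrb were at lower CPM in the knock-in, with 1 to 19 reads per library. Pdgfra had 1 read in each library at 8 h, and Pdgfrb had 4 against 3 reads at 3 h, so no fall is shown there. Col3a1, with 2 to 6 reads, was higher in the knock-in at both times (0.426 against 1.14 and 1.29 against 1.77 CPM). Both sums were also lower in the knock-in without stimulation, at 170.5 against 82.1 CPM for neutrophil and 131 against 47.5 CPM for stromal markers. In these bulk samples fewer cells of a type and less RNA per cell cannot be told apart.

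Late after LPS, 950 genes were higher and 617 lower in knock-in than in wild-type cells, 13.9% of the 11308 genes tested (edgeR's quasi-likelihood test, Benjamini-Hochberg adjusted p under 0.05 over all genes, as for every adjusted p below). Scaling by library totals instead of TMM turned this split to 599 higher and 1129 lower and moved the median difference of all genes from -0.01 to -0.15 on the log2 scale. Without the LPS 8 h pair 660 were higher and 400 lower, and with only the 4 late libraries in the fit 281 and 208. The 15 largest falls included Saa3 and Hp, which encode acute phase proteins, the scavenger receptor Marco, the IL-12 chain Il12b and the neutrophil attractants Cxcl1 and Cxcl3. The 15 largest rises included the lipid enzyme Scd1, the chemokine receptor Ccr1 and the alarmin Il33.

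At 3 h taken alone 1044 genes passed (9.23%), and at 8 h 1899 (16.8%), each from 1 pair of libraries with the spread taken from the other conditions. The 646 genes that passed at both times were 61.9% of the genes called at 3 h and 34.0% of those called at 8 h, and 628 of them had the same direction. Among 7913 genes with a mean of at least 10 CPM, 220 were at least 2-fold lower in the knock-in at 3 h, and 104 of these were at least 2-fold lower at 8 h as well. A further 193 were at least 2-fold higher at 3 h, and 104 of these were so again at 8 h.

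**Figure D1:**
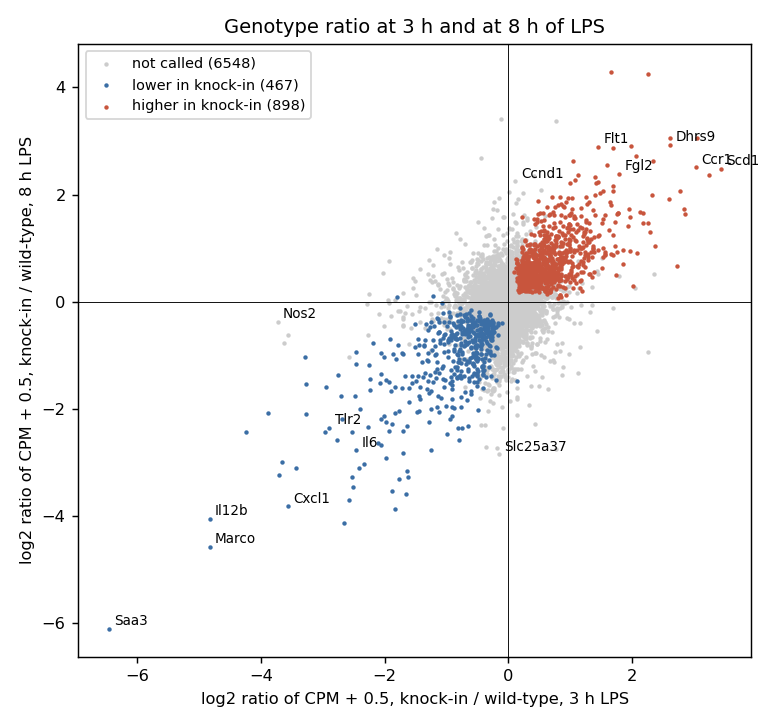
Genotype ratio of each gene with a mean of at least 10 CPM, as log2 of (CPM + 0.5) in knock-in over wild-type, at 3 h (x axis) and 8 h (y axis) of LPS; colour marks genes that passed the late LPS test. Saa3, Marco and Il12b lie farthest to the lower left, Scd1, Ccr1 and Dhrs9 lie in the upper right, and Nos2 is low at 3 h with a ratio near 0 at 8 h.

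The largest fall was in Saa3 (ENSMUSG00000040026.7, chr7:46711998-46715676, mm10), which encodes serum amyloid A3, an acute phase protein that macrophages make. The wild-type cells held 144 CPM of it at 3 h and 2234 CPM at 8 h, and knock-in cells 1.14 and 31.9 CPM. Both knock-in libraries were below both wild-type libraries, and the difference was -6.22 ± 0.16 on the log2 scale (SE, 2 pairs, adjusted p = 9.56e-09). Without stimulation Saa3 was at 1.73 CPM in wild-type cells and had no read in the knock-in. Knock-in cells thus still raised Saa3 between 3 and 8 h, from a level far below that of wild-type cells.

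Marco (ENSMUSG00000026390.5, chr1:120474538-120505024), a scavenger receptor that binds bacteria, was at 111 against 3.43 CPM at 3 h and at 764 against 31.6 CPM at 8 h. It fell by 4.68 ± 0.18 on the log2 scale late after LPS (adjusted p = 3.6e-07), and it was already at 25.7 against 2.51 CPM without stimulation. Hp, the haemoglobin scavenger haptoglobin, was at 17.9 against 0.915 CPM and 29.4 against 2.66 CPM (-3.76 ± 0.31, adjusted p = 3.6e-05). Cp, the copper protein ceruloplasmin, was at 12.4 against 0.686 CPM at 3 h, where the libraries held 58 against 3 reads (a ratio with a 95% counting interval of 5.86 to 89.8), and at 199.6 against 22.7 CPM at 8 h (-3.21 ± 0.17). All 3 genes lay below wild-type in each of the 9 pairs of libraries, a count that has no test. Id3, a partner that blocks helix-loop-helix factors, and Hivep3, a zinc finger protein, fell by 3.40 ± 0.38 and 3.14 ± 0.37, and Arg2, the mitochondrial arginase, by 3.27 ± 0.47. Arhgef37 and Ccdc125 complete the 15 largest falls, the first at -3.46 ± 0.36 and the second with 31 wild-type against 3 knock-in reads, a ratio of 10.3 with a 95% counting interval of 3.21 to 52.6; Ccdc125 was not called without the 8 h pair (adjusted p = 0.52).

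Saa3, Marco, Hp and Arg2 stand in a list of 32 late LPS effector genes, of which 30 were tested. In it 19 were lower and 2 higher in the knock-in late after LPS, with a median of -1.53 against -0.01 over all genes. For this and every list below, the shares to set beside the counts are those over all tested genes, of which 5.46% were lower and 8.4% higher. Gpr84, a receptor for medium-chain fatty acids, was at 58.0 against 4.12 CPM at 3 h and 124 against 15.1 CPM at 8 h (-3.31 ± 0.22). Fpr1, a receptor for formylated bacterial peptides, was at 26.6 against 7.09 CPM and at 137 against 8.86 CPM (-3.15 ± 0.39). Complement C3 was at 827 against 85.1 CPM and 3168 against 1096 CPM (-2.36 ± 0.44), so its 2 ratios were unlike in size. C3 was close to the threshold (adjusted p = 0.026) and was not called with no filter on low counts, without the TNF 3 h or 8 h pair, or in the fits on 8 LPS or 4 late libraries (adjusted p from 0.060 to 0.086). Cd38, an ectoenzyme that splits NAD, was also among the falls, but its value was 0.16 without the 8 h pair.

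Ptges and Ptgs2, the enzymes that make prostaglandin E2, both fell, by 2.57 ± 0.19 and 1.80 ± 0.22. Nlrp3 and Mefv, sensors of inflammasomes, fell by 1.73 ± 0.17 and 1.58 ± 0.15, and the siderophore-binding protein Lcn2 fell by 1.48 ± 0.21. The 2 members that were higher were the collagenase Mmp13 (1.09 ± 0.14) and Il4ra, the receptor chain for IL-4 and IL-13 (1.36 ± 0.20), which was at 241 against 839 CPM at 8 h. Several members, among them Lcn2, Hp, Fpr1 and Fpr2, are also made by neutrophils, whose marker sum was lower in the knock-in as given above; its part in the result was not tested.

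Nos2 and Acod1, both in that list, did not pass. Nos2, the inducible nitric oxide synthase, was at 793 CPM in the wild-type against 59.3 CPM in the knock-in library at 3 h, a 13.4-fold gap. At 8 h it was at 4280.3 and 3298 CPM, a 1.30-fold gap. The late difference was -1.94 ± 0.96 (adjusted p = 0.29), and the 3 h difference taken alone was -3.74 ± 0.37 (adjusted p = 0.0073). The difference between the times, 3.37 ± 0.47, had an adjusted p of 0.062. Acod1, the enzyme that makes itaconate, was at 4879 against 2761 CPM and 12439.7 against 5317 CPM (-1.02 ± 0.45, adjusted p = 0.24).

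**Figure D2:**
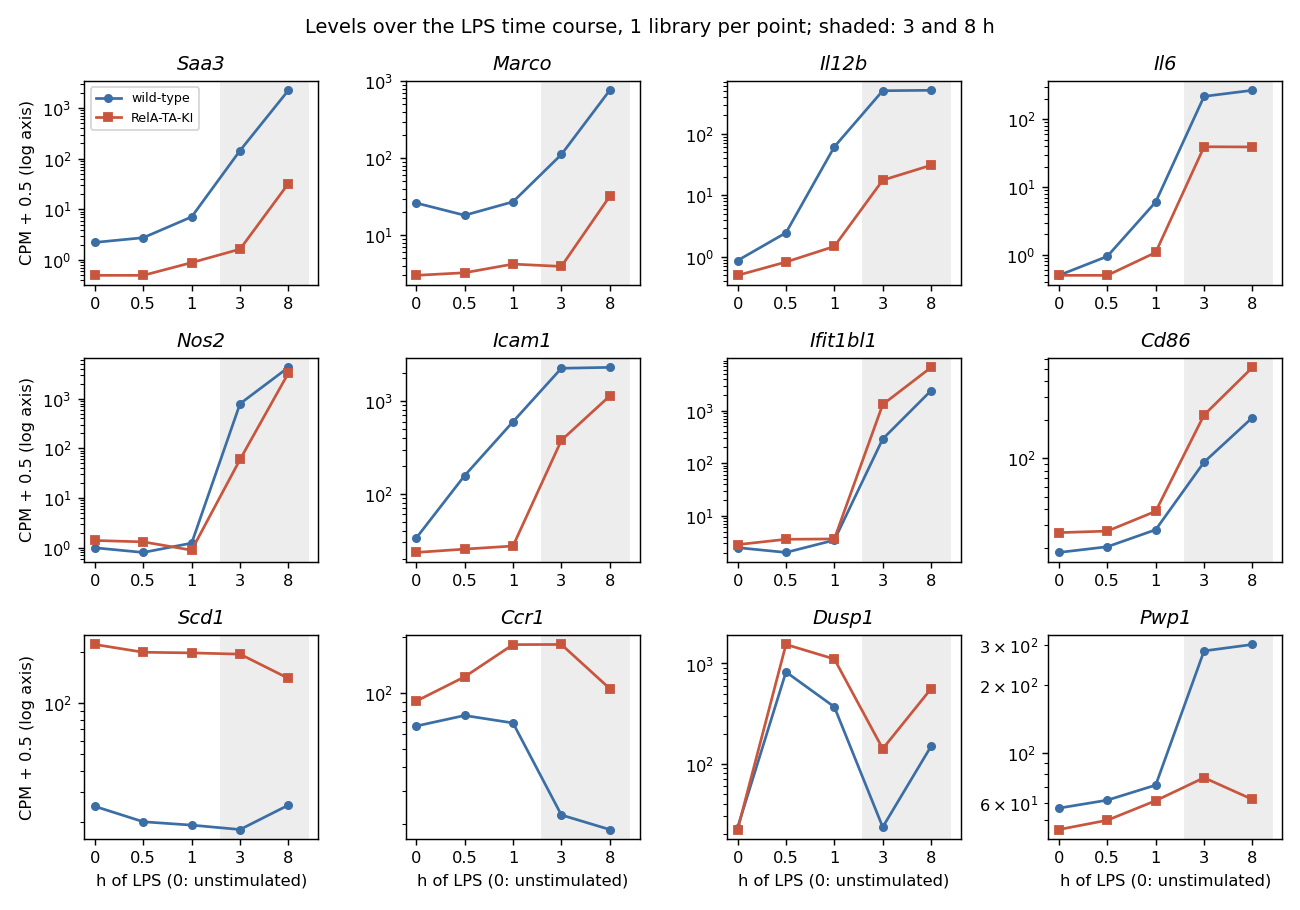
Levels of 12 genes over the LPS time course in wild-type (blue circles) and RelA-TA-KI (red squares) cells, as CPM + 0.5 on a log axis, 1 library per point, with the 3 and 8 h libraries shaded. Saa3, Marco, Il12b and Il6 lie lower in the knock-in at both late times, Nos2 lies close to the wild-type level at 8 h, and Ifit1bl1, Cd86, Scd1, Ccr1 and Dusp1 lie higher.

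Among inflammatory cytokines 5 of the 18 tested fell and 2 rose, beside 5.46% and 8.4% over all genes. Il12b (ENSMUSG00000004296.12, chr11:44400063-44414033), the p40 chain that IL-12 and IL-23 share, was at 502 against 17.2 CPM at 3 h and at 511 against 30.4 CPM at 8 h. Its difference was -4.45 ± 0.19 (adjusted p = 2.3e-06). Il6 was at 216 against 38.7 CPM and 265 against 38.4 CPM (-2.63 ± 0.14, adjusted p = 2.6e-06). Il1b and Il1a, the 2 forms of interleukin-1, fell by 2.90 ± 0.25 and 2.67 ± 0.42. Csf3, the growth factor G-CSF for neutrophils, was at 31.0 against 1.77 CPM at 8 h (-3.98 ± 0.46 late) and had 10 reads against 1 read at 3 h, a ratio of 9.31 with a 95% counting interval of 1.32 to 404; without the 8 h pair it was not called (adjusted p = 0.19).

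The cytokine Tnf did not pass: its levels were 2916 against 2528 CPM at 3 h and 2018 against 977 CPM at 8 h (-0.62 ± 0.77, adjusted p = 0.68). The cytokines that rose were Il10, which restrains macrophages, and Ifnb1, interferon-beta. Ifnb1 (ENSMUSG00000048806.4, chr4:88522025-88522774) was at 27.9 CPM in wild-type against 189 CPM in knock-in cells at 3 h, and at 17.8 against 28.3 CPM at 8 h (2.16 ± 0.45, adjusted p = 0.043). The gap was 6.78-fold at 3 h and 1.60-fold at 8 h, and the difference between the times passed at -2.09 ± 0.31 (adjusted p = 0.014). Il10 was at 2.77 against 3.43 CPM at 3 h and 44.2 against 98.0 CPM at 8 h (1.06 ± 0.25, adjusted p = 0.021). With library totals as the scale 7 cytokines passed as lower and 0 as higher, with adjusted p of 0.10 for Il10 and 0.058 for Ifnb1. DESeq2's Wald test called neither (0.50 and 0.29). With no filter on low counts Ifnb1 was not called (0.18), nor was it without 1 of the early LPS or late TNF pairs (0.069 to 0.11). Il10 was not called without 1 early TNF pair (0.069). With only the 8 LPS or 4 late libraries neither passed (0.12 and 0.19 for Ifnb1, 0.081 and 0.10 for Il10). Ifnb1 was not called without the 3 h pair (adjusted p = 0.11), nor Il10 without the 8 h pair (adjusted p = 0.88).

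In the chemokine list 6 of 18 tested genes fell and 4 rose. The neutrophil attractants Cxcl1, Cxcl2 and Cxcl3 were the largest falls. Cxcl1 was at 125 against 10.1 CPM at 3 h and 23.3 against 1.18 CPM at 8 h (-3.71 ± 0.29, adjusted p = 5.6e-05). Cxcl2 was at 323 against 53.5 CPM and 335 against 25.4 CPM (-3.09 ± 0.43), with an adjusted p of 0.077 without the 8 h pair. Cxcl3 had 108 reads in the wild-type libraries and 2 in the knock-in libraries, a ratio of 53.8 with a 95% counting interval of 14.5 to 450.

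Ccl22, which attracts T cells through CCR4, fell by 1.88 ± 0.20, as did Cxcl9, a CXCR3 ligand, by 1.20 ± 0.14. The CXCR3 ligand Cxcl11 rose by 1.05 ± 0.12, and the monocyte attractants Ccl8 and Ccl12 rose by 1.55 ± 0.25 and 0.80 ± 0.10. The third CXCR3 ligand, Cxcl10, was at 8778 against 9005 CPM at 3 h and 7055 against 7914 CPM at 8 h (0.10 ± 0.20, adjusted p = 0.80). The sign of the Cxcl10 value turned with library totals, at -0.05.

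The promoters of Cxcl1, Cxcl3 and Il6 are shown because each holds a full match to the kB motif GGGANNTTCC, searched on both strands, in the 250 bases before and 50 after the start in RefSeq's GRCm38.p6 annotation. The 200 bases before the start are printed 5′ to 3′ on the gene's strand, with the match in capitals; in Cxcl1 and Cxcl3 the matches of the 2 strands overlap, 1 base apart.

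Cxcl1 (chr5:90891045-90891244, plus strand): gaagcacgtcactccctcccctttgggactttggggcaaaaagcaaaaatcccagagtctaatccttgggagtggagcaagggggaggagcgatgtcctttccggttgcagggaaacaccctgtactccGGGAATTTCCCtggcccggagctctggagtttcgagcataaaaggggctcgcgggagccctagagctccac

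Cxcl3 (chr5:90785901-90786100, plus strand): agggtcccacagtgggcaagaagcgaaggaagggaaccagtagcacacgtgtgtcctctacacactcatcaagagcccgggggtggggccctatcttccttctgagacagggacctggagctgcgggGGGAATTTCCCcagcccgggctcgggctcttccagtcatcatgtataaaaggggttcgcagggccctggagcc

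Il6 (chr5:30012914-30013113, plus strand): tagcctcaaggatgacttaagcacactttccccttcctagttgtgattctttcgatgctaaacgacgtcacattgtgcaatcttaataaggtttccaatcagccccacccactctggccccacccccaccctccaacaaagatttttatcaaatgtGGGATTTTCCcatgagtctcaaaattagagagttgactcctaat

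Of the 15 largest falls 11 genes had an annotated promoter in the table, 12 promoters in all, and 2 of these held the kB motif, those of Cxcl1 and Cxcl3; Saa3, Marco and Il12b were among those with no match. The match began 71 bases before the start in Cxcl1, 73 in Cxcl3 and 44 in Il6. The motif was found in 1.47% of the 32851 promoters in RefSeq's annotation used here and in 1.58% of those of tested genes. Among genes that rose at least 2-fold with LPS in both genotypes together (induced genes), the share was 4.46% for those lower in the knock-in (10 of 224 promoters), 2.67% for those higher and 2.58% for those not called. These shares are descriptions of 300-base windows, and genes can have more than 1 promoter.

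In the NF-kB family 4 of 5 subunits fell. Nfkb1, the precursor of p50, was at 679.5 against 329 CPM at 3 h and 551 against 287 CPM at 8 h (-0.99 ± 0.08, adjusted p = 3.1e-05). Nfkb2, the precursor of p52, was at 590.5 against 229.9 CPM and 728 against 418 CPM (-1.08 ± 0.24). Relb, the partner of p52, was at 126 against 36.4 CPM and 98.8 against 56.1 CPM (-1.32 ± 0.32, adjusted p = 0.044). Rela itself (ENSMUSG00000024927.7, chr19:5637483-5648130) was at 283 against 181 CPM and 166 against 144 CPM (-0.44 ± 0.11, adjusted p = 0.026); counts per gene do not read the altered allele. Without the 3 h pair Rela, Nfkb2 and Relb were not called (adjusted p = 0.33, 0.21 and 0.27), and without the 8 h pair Nfkb2 and Relb were not (0.11 and 0.069). Rela was not called with DESeq2's Wald test (adjusted p = 0.12) or without 1 early TNF pair (0.073). It also did not pass with only the 8 LPS or 4 late libraries (0.11 and 0.21). Relb was not called with no filter on low counts (0.22) or without any 1 TNF pair (0.051 to 0.063). With only the 8 LPS libraries Relb did not pass either (0.072). Nfkb2 was not called with no filter (0.17) or without 1 late TNF pair (0.054 and 0.056). Rel was at 453 against 424 CPM and 228 against 345 CPM (0.23 ± 0.20, adjusted p = 0.51).

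Of the 11 inhibitors and ubiquitin regulators tested, Tnip1 fell by 1.31 ± 0.26 and Tnip2 rose by 0.69 ± 0.19; both bind the regulator A20, and neither was called without the 3 h pair (adjusted p = 0.11 and 0.054) or without the 8 h pair (0.055 and 0.29). With no filter on low counts Tnip1 was not called (adjusted p = 0.13). Tnip2 did not pass with library totals or DESeq2's Wald test (0.085 and 0.11), or without any 1 TNF pair (0.051 to 0.053). With only the 8 LPS or 4 late libraries Tnip2 also did not pass (0.090 and 0.12). Nfkbia, the inhibitor IkBa, was at 1122 against 524 CPM at 3 h and 1168 against 902 CPM at 8 h and did not pass (adjusted p = 0.48). Tnfaip3, which encodes A20, was at 1399 against 1107 CPM and 1512 against 1374 CPM (adjusted p = 0.81). The adhesion molecule Icam1 was at 2262 against 377 CPM and 2312 against 1137 CPM, and its late difference of -1.80 ± 0.60 had an adjusted p of 0.14. Sod2, the mitochondrial superoxide dismutase, was the 1 of 15 survival genes that fell, with 0 that rose, a count near the share over all genes. Its levels were 528 against 109 CPM and 1265 against 251 CPM (-2.31 ± 0.22).

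**Figure D3:**
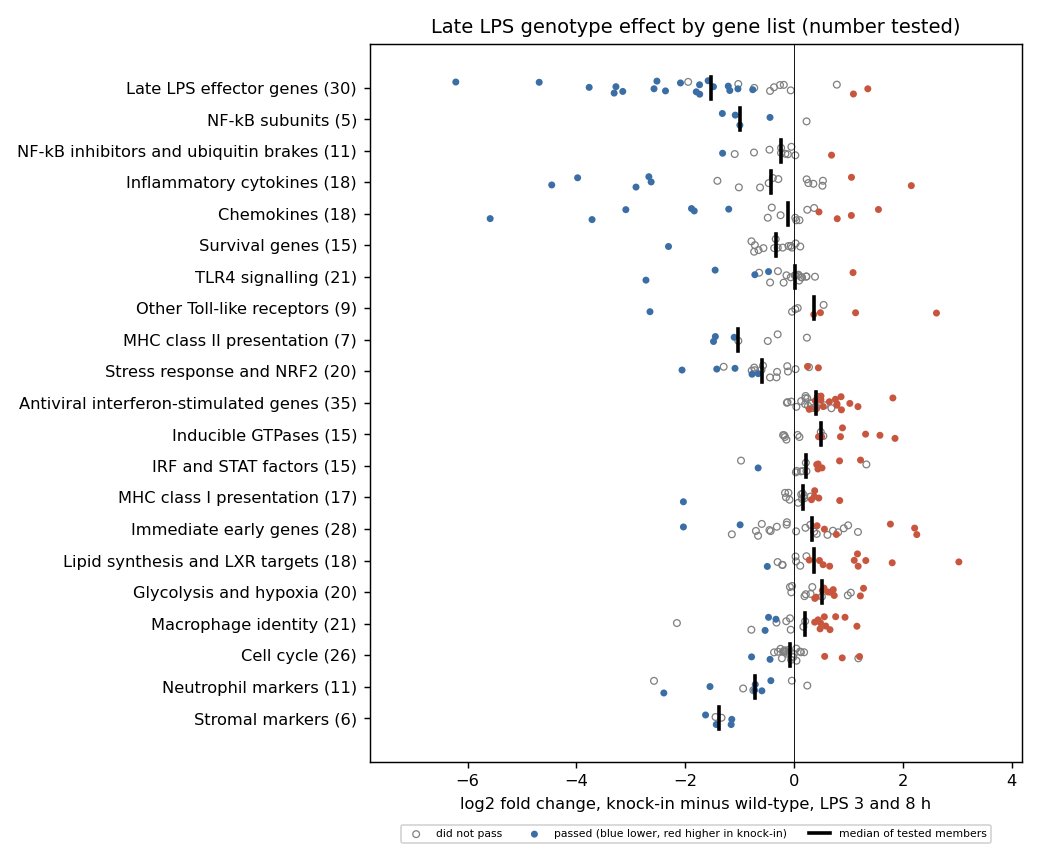
Late LPS genotype effect (log2 fold change, knock-in minus wild-type; x axis) of each tested member of 21 gene lists, with the number tested; filled points passed the test and bars are medians. The late LPS effector genes spread furthest to the left with a median of -1.53, and all members of the antiviral, GTPase and glycolysis lists that passed lie to the right.

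Of 35 antiviral interferon-stimulated genes tested 16 rose, 0 fell and 19 did not pass, beside 8.4% higher and 5.46% lower over all genes, and the median was 0.41. Ifit1bl1 was at 289 CPM in wild-type against 1310.3 CPM in knock-in cells at 3 h and at 2410.0 against 6659.6 CPM at 8 h (1.82 ± 0.22, adjusted p = 0.003). Isg15, a ubiquitin-like antiviral protein, was at 829 against 1309 CPM and 2822 against 4403 CPM (0.65 ± 0.11, adjusted p = 0.0034). Ifit1, Ifit3 and Ifit3b, members of a family that binds viral RNA, rose by 0.79 ± 0.19, 0.87 ± 0.15 and 1.03 ± 0.15. Ifit1 was not called without the 3 h pair (adjusted p = 0.097) or the 8 h pair (0.16). The Ifit genes and the Oas genes are families of close copies, so reads may be split between members.

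Mx1, Oas2 and Rsad2 did not pass, with values of 0.30, 0.20 and 0.44, and the values of Ddx58, Zbp1 and Parp14 were below 0, at -0.05, -0.13 and -0.12. With library totals 9 of the 35 rose and 0 fell. Of 15 inducible GTPases, which attack vacuoles of pathogens, 7 rose and 0 fell (5 and 0 with library totals). Iigp1 was at 203 against 973 CPM at 3 h and 1249.9 against 3467 CPM at 8 h (1.86 ± 0.24). Gbp2 and Gbp5 did not pass, with values of 0.10 and -0.14.

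The promoters of Ifit1bl1 and Isg15 hold the motif GAAANNGAAA, the core of the interferon-stimulated response element, and are shown in the same way.

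Ifit1bl1 (chr19:34601969-34602168, minus strand): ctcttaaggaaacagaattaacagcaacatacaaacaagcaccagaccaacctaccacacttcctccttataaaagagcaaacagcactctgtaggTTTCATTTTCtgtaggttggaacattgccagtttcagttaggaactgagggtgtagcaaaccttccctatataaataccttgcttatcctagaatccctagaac

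Isg15 (chr4:156200819-156201018, minus strand): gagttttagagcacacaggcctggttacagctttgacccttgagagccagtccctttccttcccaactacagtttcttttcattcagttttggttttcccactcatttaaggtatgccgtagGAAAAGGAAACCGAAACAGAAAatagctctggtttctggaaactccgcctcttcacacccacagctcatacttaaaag

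In Isg15 the 3 matches began 78, 72 and 66 bases before the start and overlap by 4 bases each; in Ifit1bl1 the match lies on the other strand, at 104 bases. This motif was found in 3.44% of all annotated promoters. The share was 10.7% among induced genes higher in the knock-in (40 of 375 promoters), 4.02% among induced genes lower and 8.08% among those not called.

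Of 15 IRF and STAT factors 6 rose and 1 fell. Irf8, a factor of the macrophage lineage, was at 382 against 694 CPM at 3 h and 239.6 against 733 CPM at 8 h (1.22 ± 0.15), and Stat3 rose by 0.84 ± 0.12. Irf3, the factor downstream of TRIF, fell by 0.66 ± 0.18 from 27.3 and 26.8 CPM in wild-type cells, and was not called without the 3 h pair (adjusted p = 0.26) or the 8 h pair (0.053). Stat2 and Irf1 did not pass, with values of 0.04 and 0.05.

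The largest rises outside these lists were in genes of unlike roles. Scd1 (ENSMUSG00000037071.2, chr19:44394451-44407709), the enzyme that puts a double bond into fatty acids, was at 17.5 against 194 CPM at 3 h and at 24.5 against 139.7 CPM at 8 h (3.03 ± 0.19, adjusted p = 2.1e-05). It was at 24.1 against 222 CPM without stimulation, so this difference was present before LPS. Ccr1, a receptor for CCL3 and CCL5, was at 21.7 against 181 CPM and 18.1 against 105 CPM (2.86 ± 0.23); wild-type cells had held 66.1 CPM before LPS and knock-in cells 90.0 CPM. Dhrs9, a retinol dehydrogenase, was at 16.0 against 101 CPM and 13.2 against 104 CPM (2.79 ± 0.17).

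Flt1, a receptor for VEGF, was at 0.852 against 3.20 CPM at 3 h and 18.7 against 142 CPM at 8 h (2.86 ± 0.18). Il33, an alarmin of the interleukin-1 family, was at 1.49 against 16.7 CPM and 0.646 against 8.56 CPM (3.52 ± 0.41). Ifi202b, an interferon-inducible gene of the p200 family, had 3 reads in the wild-type and 76 in the knock-in libraries, a ratio of 25.4 with a 95% counting interval of 8.38 to 126. Dcbld1, Cacnb4, Sectm1a, Faah, Casp12, Znrf3, Fam110c, Eps8 and Serpinb9b completed the 15 largest rises, with values from 2.64 to 3.74. At 1 or both late times the wild-type library held 1 to 3 reads of Dcbld1, Casp12, Faah, Fam110c, Serpinb9b and Il33. The lowest count ratio in those pairs was 5.37, with a 95% counting interval of 0.601 to 254 (Faah at 3 h). The highest was 27.9, with 4.59 to 1145 (Fam110c at 3 h). For Il33 at 8 h, with 2 wild-type and 29 knock-in reads, it was 13.3, with 3.35 to 115. Without the 3 h pair Ifi202b and Fam110c were not called (adjusted p = 0.11 and 0.22), and without the 8 h pair Flt1, Faah and Serpinb9b were not (0.13, 0.44 and 0.13). DESeq2's Wald test did not call Il33, Sectm1a, Faah or Ifi202b (adjusted p from 0.29 to 0.88).

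**Figure D4:**
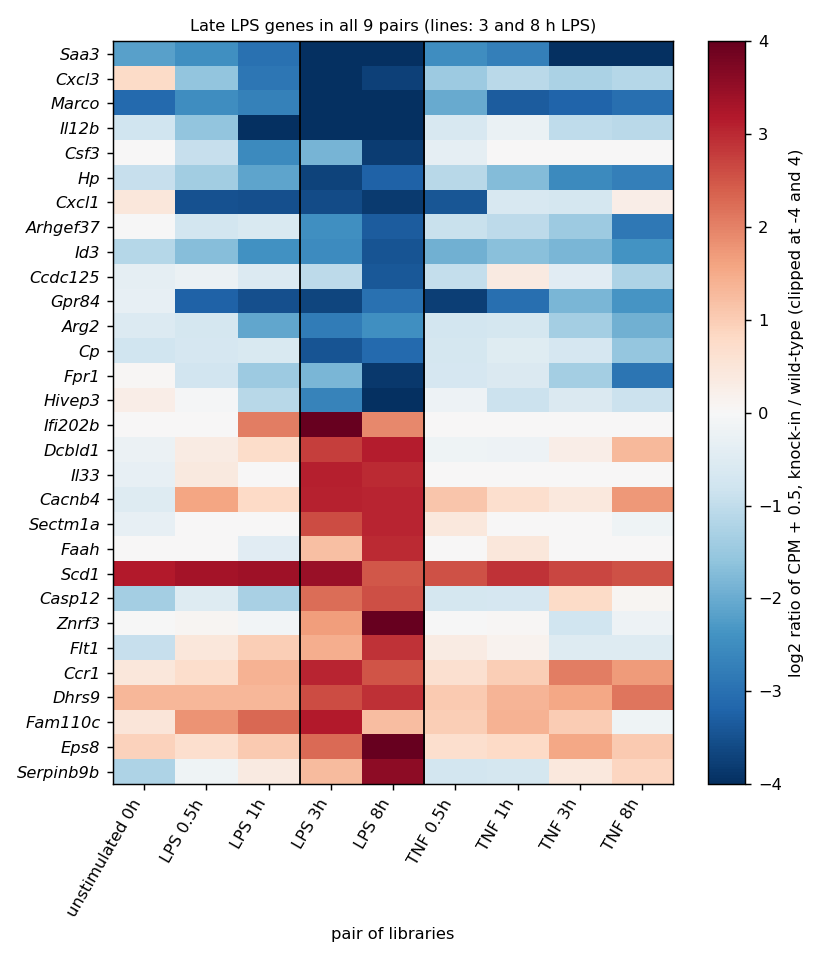
Genotype ratio, log2 of (CPM + 0.5) in knock-in over wild-type, of the 15 genes with the largest fall and the 15 with the largest rise late after LPS (rows) in each of the 9 pairs of libraries (columns); colours are clipped at -4 and 4. Marco, Saa3 and Scd1 keep their colour across all columns, while Il33, Sectm1a and Znrf3 are coloured at 3 and 8 h of LPS and pale elsewhere.

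In the list of lipid synthesis genes and targets of the sterol receptor LXR, 10 of 18 rose and 1 fell (9 and 2 with library totals). Pltp, a phospholipid transfer protein, rose by 1.81 ± 0.15, and Abcg1, a cholesterol exporter, rose by 1.32 ± 0.12. Fads2, a desaturase, and Lpl, lipoprotein lipase, rose by 1.18 ± 0.11 and 1.17 ± 0.06. Abca1, another cholesterol exporter, was at 282 against 414 CPM at 3 h and 279 against 259 CPM at 8 h and did not pass (0.23 ± 0.32). The fatty acid synthase Fasn was also not called (-0.21 ± 0.34).

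In glycolysis and hypoxia genes 10 of 20 rose and 0 fell, with a median of 0.52 (8 and 0 with library totals). Slc16a3, the lactate exporter, was at 44.1 against 109 CPM at 3 h and 55.6 against 122 CPM at 8 h (1.22 ± 0.13). Bnip3, a mitophagy receptor, rose by 1.28 ± 0.30 and Pgk1, phosphoglycerate kinase, by 0.74 ± 0.17. Neither Bnip3 nor Pgk1 was called without the 3 h pair (adjusted p = 0.12 and 0.28). Hk2, Slc2a1 and Pfkfb3, which set glucose uptake and entry, did not pass, with values of -0.07, 0.22 and -0.05.

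In stress response genes 5 of 20 fell and 2 rose, beside 5.46% and 8.4% over all genes. Slc7a11, the cystine importer, was at 237 against 72.8 CPM and 101 against 13.9 CPM (-2.06 ± 0.23), and Gsr, glutathione reductase, fell by 1.42 ± 0.34 (adjusted p = 0.046). Gsr was not called with no filter on low counts (adjusted p = 0.16), without the LPS 0.5 h, LPS 1 h or any TNF pair (0.058 to 0.094), or with only the 8 LPS or 4 late libraries (0.13 and 0.19). Nfe2l2, which encodes NRF2, the factor that drives such antioxidant genes, was at 177 against 77.8 CPM at 3 h and 324 against 131 CPM at 8 h (-1.25 ± 0.10, adjusted p = 3.6e-05). Without stimulation Nfe2l2 was at 236 against 232 CPM.

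Immediate early genes gave 6 rises and 2 falls among 28, beside 8.4% and 5.46% over all genes. Dusp1, the phosphatase that switches off MAP kinases, was at 22.8 against 140.5 CPM at 3 h and 149 against 560.1 CPM at 8 h (2.22 ± 0.24). Fos was at 8.10 against 62.2 CPM and 20.3 against 64.1 CPM (2.26 ± 0.45), and Dusp5, a phosphatase of ERK, rose by 1.77 ± 0.26. The nuclear receptor Nr4a3 fell by 2.03 ± 0.33. Without the 3 h pair neither Fos nor Nr4a3 was called (adjusted p = 0.17 and 0.15), and without the 8 h pair Fos was not (0.091).

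Among 21 TLR4 signalling genes 4 fell and 1 rose, beside 5.46% and 8.4% over all genes. Irak3, a brake on the MyD88 pathway, was at 38.4 against 11.9 CPM at 3 h and 133 against 10.6 CPM at 8 h (-2.72 ± 0.37). Ticam2, the adaptor TRAM that links TLR4 to TRIF, fell by 1.45 ± 0.22, while Tlr4 itself rose by 1.09 ± 0.15. Among 9 other Toll-like receptors Tlr2, which binds bacterial lipopeptides, was at 1462 against 197 CPM and 392 against 76.2 CPM (-2.65 ± 0.15). Among the 4 that rose, Tlr3, Tlr7 and Tlr8, receptors of RNA in endosomes, were higher by 0.36 ± 0.11, 0.49 ± 0.09 and 1.13 ± 0.13; Tlr3 was not called without the 8 h pair (adjusted p = 0.45). With library totals or DESeq2's Wald test Tlr3 did not pass either (adjusted p = 0.21 and 0.26). Nor did it without 1 early LPS or early TNF pair (0.12 and 0.13). With only the 8 LPS or 4 late libraries its values were 0.093 and 0.29. Tlr5, which also passed (adjusted p = 0.046), had 2 wild-type and 13 knock-in reads, a ratio of 6.53 with a 95% counting interval of 1.48 to 59.6. It was not called with library totals, limma-voom or DESeq2's Wald test (adjusted p = 0.055, 0.052 and 0.16), without the 3 h or the 8 h pair (0.41 and 0.087), or with only the 4 late libraries (0.22).

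Of 21 macrophage identity genes 10 rose and 3 fell. Fcgr1, the high-affinity receptor for IgG, was at 189 against 496 CPM and 1608 against 3070.2 CPM (1.16 ± 0.14). The costimulatory ligand Cd86 was at 92.9 against 218 CPM and 208 against 512 CPM (1.27 ± 0.10), while Cd40 and Cd80 did not pass. Adgre1, the surface protein F4/80, fell by 0.53 ± 0.07. MHC class II genes gave 3 falls among 7: Cd74, the invariant chain, was at 146 against 34.8 CPM and 242 against 124 CPM (-1.44 ± 0.32), and H2-Eb1 and H2-Ab1 fell by 1.48 ± 0.21 and 1.10 ± 0.16. Cd74 was not called without the 3 h pair (adjusted p = 0.11).

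Of 26 cell cycle genes 3 were higher and 2 lower, beside 8.4% and 5.46% over all genes. Ccnd1, cyclin D1, was at 326 against 354 CPM at 3 h and 291 against 1383 CPM at 8 h. The difference between the times was 2.13 ± 0.16 (adjusted p = 2.1e-04), with the knock-in higher at 8 h. Pcna, the sliding clamp of DNA replication, rose by 0.89 ± 0.10 and Mki67, a marker of dividing cells, fell by 0.78 ± 0.18 but was not called without the 8 h pair (adjusted p = 0.26).

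In all, 175 genes (1.55%) had a genotype difference that differed between 8 and 3 h, 96 with a higher and 79 with a lower value at 8 h. C3 was among them, with a difference of 1.75 ± 0.20. Slc25a37, a mitochondrial iron importer, was at 147 against 133 CPM at 3 h and 85.9 against 11.5 CPM at 8 h, a change of -2.74 ± 0.37. These counts rest on the spread of the other conditions: without the TNF 0.5 h or 1 h pair they were 24 and 25, without the TNF 3 h pair 298 and 249, and without the TNF 8 h pair 308 and 237.

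The late LPS effect was also set against the early one (0.5 and 1 h of LPS), where 401 genes passed (3.55%). The effects differed for 144 genes (1.27%), 104 with a higher and 40 with a lower late value; without the LPS 0.5 h pair 9 and 1 passed, and without the LPS 3 h pair there were 450 and 335. Pwp1, a WD-repeat protein of ribosome production, was at 283 against 76.9 CPM at 3 h and 302 against 61.4 CPM at 8 h, and its late effect was 1.81 ± 0.16 below its early one. Cxcl10 was 3.02 ± 0.23 lower in the knock-in early after LPS and 0.10 ± 0.20 higher late, a difference of 3.12 ± 0.30 (adjusted p = 0.015). Tnfsf9, the ligand 4-1BBL, and Gem, a small GTPase, gave differences of 3.50 ± 0.46 and 3.05 ± 0.26 in the same direction.

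Late after TNF 664 genes differed between genotypes (5.87%). The late LPS and late TNF effects differed for 97 genes (0.858%), 51 higher and 46 lower with LPS; leaving out 1 pair moved these counts to between 11 and 369 and between 13 and 294, the lowest without the TNF 0.5 h or 1 h pair and the highest without the LPS 3 h pair. Clec4e, the receptor Mincle for mycobacterial glycolipid, was at 1268 against 252 CPM at 3 h and 3369.8 against 412 CPM at 8 h of LPS. Its late effect was -2.69 ± 0.18 with LPS and -0.20 ± 0.16 with TNF, and the difference passed (-2.49 ± 0.24, adjusted p = 0.0058). Serpinb9, an inhibitor of granzyme B, was higher by 1.82 ± 0.14 with LPS and at -0.25 ± 0.16 with TNF.

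Without stimulation 49 genes differed between genotypes (0.433%) in a test on 1 pair. The late LPS effect differed from the unstimulated one for 62 genes (0.548%), 44 with a higher and 18 with a lower value; without the TNF 0.5 h or 1 h pair it did so for 0 of either, while 1222 genes had an unadjusted p under 0.05 with all pairs, and without the LPS 3 h pair the counts were 278 and 238. Flt1, Ccr1 and Mtus1 were higher than the unstimulated difference by 4.43 ± 0.82, 2.41 ± 0.34 and 2.18 ± 0.22. Clec4e, Tlr2 and Nfe2l2 were lower than it by 2.56, 2.14 and 1.23 on the log2 scale.

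Late LPS changed 65.8% of tested genes in both genotypes together. Genes induced at least 2-fold numbered 1787, of which 373 were higher and 220 lower in the knock-in, shares of 20.9% and 12.3% against 8.4% and 5.46% over all genes. Of these, 134 were at least 2-fold lower and 115 at least 2-fold higher. With library totals 1012 genes were induced, 155 higher and 183 lower. Among 1876 repressed genes 58 were higher and 80 lower. The induction test and the genotype test used the same libraries.

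Called genes were spread over the genome. The share of tested genes called late after LPS lay between 11.6% on chromosome 15 and 17.7% on chromosome 18, and was 13.4% for the 194 tested genes within 10 Mb of Rela on chromosome 19.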

How the data were processed

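Poly(A) RNA of mouse bone marrow-derived macrophages was sequenced from KAPA stranded libraries as 50-base single reads, per the labels' protocols. The authors deposited 1 table of raw read counts per gene; per the submitters' processing notes, cutadapt 1.12, STAR and featureCounts 1.5.0 were used with mm10. Neither the annotation release nor the strand setting of the counting is stated there, so reads of overlapping antisense genes cannot be told apart. Samples were matched to columns by title.

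Of 45706 genes, 11308 passed edgeR's filterByExpr (a count of at least 10, total of 15). Counts were scaled by TMM and fitted with edgeR 4.0.16's quasi-likelihood test in R 4.3.3, with a term for each of the 9 conditions and a genotype effect for each of 5 blocks: unstimulated, early (0.5 and 1 h) and late (3 and 8 h) LPS, early and late TNF. This left 4 residual degrees of freedom; a second fit with separate 3 and 8 h effects left 3. Benjamini-Hochberg adjustment ran over all tested genes. The SE is the log2 fold change divided by the square root of F. Where both late libraries of a genotype together held 1 to 3 reads, and for some single libraries with so few, exact 95% intervals of the count ratio are given; intervals cover counting error only. Between 4663650 and 6721917 counts per library limit the precision of genes below about 2 CPM. Named genes were the 15 largest called changes in each direction of the late effect, with a mean of at least 2 CPM and the same sign at 3 and 8 h and without numbered gene models, 6 per direction for other comparisons, and the 3 largest called members of each of 32 lists. Further list members were named after their values were seen. The comparison, its genes and the lists were chosen with earlier results of these data known. The procedure was tested on simulated data. Motifs were searched in 300-base RefSeq promoter windows (GRCm38.p6), in which 8909 of 11308 tested genes matched by symbol. Alternatives were DESeq2 size factors, library totals, filters, limma-voom 3.58.1, DESeq2 1.42.0, each pair left out, and fits on fewer libraries.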

Additional observations from a re-analysis of the deposited data

Results flagged for a closer look

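The genotype effect late after LPS differed from that of another time or stimulus, by a test of the difference itself, for the genes below (edgeR's quasi-likelihood test, adjusted p under 0.05; log2 scale, late LPS minus the other effect). They are the 6 largest differences in each direction of each comparison, and no explanation was tested. Against early LPS the late effect was lower for Sephs2 (-2.38), Rhob (-2.23), Ksr1 (-2.22), Marco (-1.92), Pwp1 (-1.81) and Trpm4 (-1.78), and higher for Tnfsf9 (3.50), Slc45a3 (3.16), Cxcl10 (3.12), Gem (3.05), Mir155hg (2.74) and Mtus1 (2.14). Against late TNF it was lower for Slco4a1 (-3.25), Sema6d (-3.00), Trim36 (-2.66), Clec4e (-2.49), Htr2a (-2.41) and Ampd3 (-1.92), and higher for Flt1 (3.48), Gpr160 (2.18), Serpinb9 (2.07), Rab19 (2.04), Insl6 (1.92) and Gadd45g (1.82).

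Against the unstimulated pair it was lower for Clec4e (-2.56), Tlr2 (-2.14), Pwp1 (-1.76), Kif3c (-1.63), Ift57 (-1.56) and Nfe2l2 (-1.23), and higher for Flt1 (4.43), Tnfrsf26 (2.54), Ccr1 (2.41), Arl4c (2.39), Mtus1 (2.18) and Bcar3 (2.13). Between the late times, the effect at 8 h was below that at 3 h for Pkdcc (-3.44), Pim3 (-3.19), Usp10 (-2.97), Bhlhe41 (-2.75), Slc25a37 (-2.74) and Cmklr1 (-2.54). It was above it for Slamf1 (4.38), Asprv1 (3.25), Znrf3 (2.94), Ccnd1 (2.13), Cnn3 (2.10) and Nlrp10 (2.02). Slamf1 had 1 knock-in read at 3 h, where the wild-type to knock-in ratio was 35.4 with a 95% counting interval of 5.98 to 1434. Pim3 had 27 wild-type against 3 knock-in reads at 8 h (interval of the ratio 3.03 to 50.7). Of the genes set against late TNF, Slco4a1 had 29 against 3 reads at 3 h and 12 against 2 at 8 h (2.79 to 46.2 and 1.46 to 60.4). At 8 h Sema6d had 9 against 3 reads (0.819 to 18.8) and Htr2a 13 against 3 (1.30 to 25.9).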

How the results depend on the processing

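The genotypes were paired by condition in every fit. A further pairing by replicate was not possible, because the labels give no replicate numbers to fit as a block. Of 124 called genes that the naming rule picked, 0 changed direction in these settings, while Cd38, called but named outside that rule, did so without the LPS 8 h pair; 123 of the 124 kept their call with DESeq2 size factors, 117 with library totals, 114 with no filter, 120 with limma-voom, 110 of 123 with DESeq2's Wald test, 96 without the LPS 3 h pair, 102 without the LPS 8 h pair and 89 with only the 4 late libraries. For the largest changes of the late, 3 h and 8 h effects, the naming rule itself required the same sign at 3 and 8 h. The direction of those genes without either pair was therefore largely set in advance. Counts were as follows. Library totals gave 599 higher and 1129 lower genes late, 629 lower at 3 h, 589 higher and 1437 lower at 8 h, 135 lower for 8 h minus 3 h, 69 higher for late minus early, 24 higher for late minus unstimulated, and 1638 higher and 7763 lower for the LPS response. The 4 late libraries alone gave 281 higher and 208 lower, and the 8 LPS libraries 384 lower. DESeq2's Wald test gave 214 higher and 156 lower at 3 h, 390 and 285 at 8 h, 19 and 27 for 8 h minus 3 h, and 41 lower for late minus unstimulated. No filter gave 271 higher and 145 lower for 8 h minus 3 h, 218 and 100 for late minus early, 218 and 113 for LPS minus TNF, and 156 and 70 for late minus unstimulated. limma-voom gave 86 higher for LPS minus TNF. A threshold of 2 on the log2 scale left 898 induced genes.

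Leaving out 1 pair moved the late count to between 660 and 1120 higher and between 400 and 776 lower. The ranges were 24 to 308 and 25 to 249 for 8 h minus 3 h, 9 to 450 and 1 to 335 for late minus early, 11 to 369 and 13 to 294 for LPS minus TNF, and 0 to 278 and 0 to 238 for late minus unstimulated. The sign of the late value turned without the LPS 8 h pair for 8 genes, none of them called late, and the values with 1 pair left out ran from -0.00079 to 3.24 for Asprv1, -2.31 to 0.45 for Bhlhe41, -1.35 to 1.20 for Cmklr1, -0.23 to 1.86 for Cnn3, -1.11 to 0.11 for Kit, -0.26 to 1.76 for Nlrp10, -1.98 to 1.47 for Pkdcc and -0.0027 to 0.051 for mt-Co1. It also turned for Cd38, which was called late, with a range of -1.48 to 0.16 (the latter without the LPS 8 h pair). It turned with library totals for Cxcl10 (-0.052) and mt-Co1 (-0.13). For these the cause was not tested. Depth limits genes of a few reads, such as Cxcl3 and Ifi202b.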

Other observations

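Genes of extracellular matrix turnover moved both ways late after LPS, with 5 higher and 3 lower of 15 tested. Adamts4, a protease that cuts aggrecan, was at 207 against 20.8 CPM at 3 h and 13.2 against 6.20 CPM at 8 h in wild-type against knock-in cells (-2.95 ± 0.38, edgeR). Timp1, an inhibitor of metalloproteases, fell by 1.39 ± 0.26. Adamts4 was not called without the 3 h pair (adjusted p = 0.21), nor Timp1 without the 8 h pair (0.10). Mmp12, the macrophage elastase, rose by 1.54 ± 0.10, and Plaur, the receptor of urokinase, by 1.13 ± 0.16. Among 13 adhesion molecules 4 fell, 1 of them the glycolipid receptor Clec4e described above, and 2 rose, beside 5.46% lower and 8.4% higher over all genes. Itgal, the alpha chain of the integrin LFA-1, was at 189.6 against 49.7 CPM at 3 h and 393 against 73.5 CPM at 8 h (-2.19 ± 0.13), and Vcam1, a ligand of integrin VLA-4, fell by 0.83 ± 0.16 and was at the threshold without the 3 h pair (adjusted p = 0.0503).

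Of 16 lysosome genes 7 rose and 1 fell (3 and 1 with library totals). Ctsl, the protease cathepsin L, was at 782 against 1569 CPM at 3 h and 800.0 against 1547 CPM at 8 h (0.98 ± 0.06), and Npc2, a cholesterol carrier of lysosomes, rose by 0.50 ± 0.07. Of 17 genes of MHC class I presentation 5 rose and 1 fell (2 and 2 with library totals); the nonclassical H2-M2 fell by 2.03 ± 0.25 and H2-T22 rose by 0.84 ± 0.11, in a family of close copies whose reads may be split. Of 19 cholesterol synthesis genes 3 rose and 0 fell, beside 8.4% and 5.46% over all genes, where library totals gave 1 higher and 2 lower, and the median was 0.09. Among 11 TNF receptor genes 2 rose and 1 fell. Tnfrsf1b, the receptor TNFR2, fell by 0.75 ± 0.19, while Tnfrsf1a, the receptor TNFR1, rose by 0.46 ± 0.09 and Tnfrsf11a, the receptor RANK, by 0.59 ± 0.08. The fall of Tnfrsf1b was close to the threshold (edgeR, adjusted p = 0.049). It was not called with DESeq2 size factors, no filter or limma-voom (adjusted p = 0.055, 0.25 and 0.059). Nor was it without 1 late TNF pair (0.081), or with only the 8 LPS or 4 late libraries (0.091 and 0.085). Tnfrsf1b was not called without the 3 h pair (adjusted p = 0.15).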
